A study of Mus musculus with 12 samples.

Results

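The genes described here carry glucose into the cell, break it down to pyruvate, exchange lactate and feed pyruvate into mitochondrial oxidation, with the synthase and phosphorylases of glycogen. They were chosen by name as a list of 36 gene symbols, and all 36 were found among the 55421 genes of the count table. Aldoa is listed under 2 gene IDs, so the symbols match 37 rows. The second Aldoa ID had 0 to 14 counts per library and did not pass the filter on low counts in the fit of all libraries, while 1 ID for each of the 36 symbols did.

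Gene expression was measured by RNA sequencing of ventricular tissue from wild-type mice, in 3 groups of 4 libraries. Ang II_FI mice had a subcutaneous osmotic minipump that delivered angiotensin II (Ang II), a vasoconstrictor hormone used to bring on hypertrophy of the heart, and were given Forsythoside I (FI) into the peritoneum at 50 mg/kg on alternate days, from before pump implantation until day 14. Ang II mice had the Ang II pump and vehicle. Con mice received saline and vehicle. No group received FI without Ang II, whole ventricle holds many cell types, and the labels do not say how the 4 libraries of a group were derived from animals, so p-values measure the spread between these libraries.

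Glucose enters cardiomyocytes through facilitative transporters, of which GLUT4 moves to the surface on insulin and contraction, and is trapped by hexokinase. Phosphofructokinase-1 is the main control point of glycolysis and is activated by fructose 2,6-bisphosphate, which the bifunctional Pfkfb enzymes make and degrade. Pyruvate is reduced to lactate or enters mitochondria, where pyruvate dehydrogenase commits it to oxidation unless a Pdk kinase switches that enzyme off. The adult heart draws most of its energy from fatty acids and uses glucose and lactate beside them, and many of these steps exist as muscle isoenzymes and as isoenzymes of other tissues.

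The libraries held 68874852 to 80624227 counts, of which 29.1% to 38.8% were on mitochondrially encoded genes. Values are CPM (counts per 1000000 of the library total after TMM scaling), and a count of 3 equals 0.0368 to 0.0454 CPM. The 12 cardiomyocyte markers summed to 40114 to 52811 CPM in Ang II_FI, 38531 to 44472 in Ang II and 40584 to 56382 in Con. Ang II_FI 3 stood apart, with 29894 CPM on hepatocyte markers against 31.4 to 107 in the other 11 libraries, and many results on Ang II_FI are also given without it. The common biological coefficient of variation, a measure of the spread within groups, came to 0.269 without it and to 0.343 with it.

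The comparison of Ang II with Con shows how these genes stood under angiotensin II. Most of the 36 genes lay slightly lower in Ang II than in Con ventricles, but no member passed the test over all genes. The log2 fold change was below 0 for 29 members and above 0 for 7, with a median of -0.148, against 0.005 over all 17376 genes tested. With edgeR (quasi-likelihood test, Benjamini-Hochberg adjusted p under 0.05), 0 members were higher and 0 lower, where 1.57% and 0.662% of all genes were, and the smallest adjusted p of a member was 0.0793. At an unadjusted p under 0.05 there were 3 higher and 11 lower members, against 9.37% and 7.41% of all genes. The 4 Ang II values lay below the 4 Con values for 8 members (Slc2a4, Pfkm, Pfkfb1, Pkm, Ldhb, Pdha1, Pdk2 and Pygm) and above them for 1 (Slc16a3), against 6.11% and 7.36% of all genes. DESeq2 called 4 of those 8 lower, Slc2a4, Pfkm, Pfkfb1 and Pdk2, and 0 higher, where it called 2.49% of all genes lower and 3.83% higher. limma-voom called 0.

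**Figure D1:**
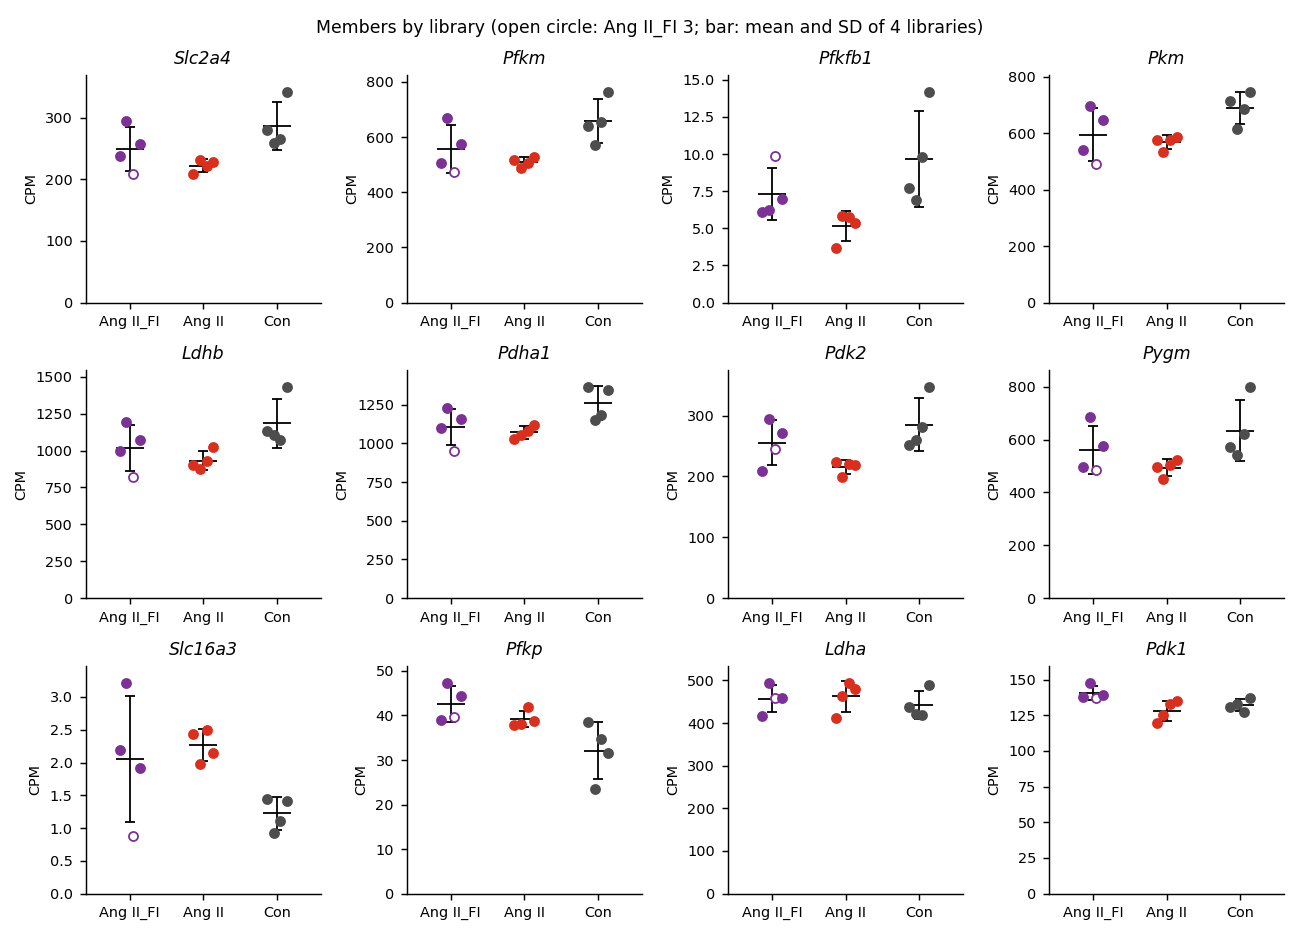
TMM-scaled CPM (y axis, from 0) of 12 members in each library of the 3 groups (x axis), with the mean and SD of 4 libraries as a bar and Ang II_FI 3 as an open circle. Slc2a4 to Pygm are the 8 members whose Ang II values all lie below Con, Slc16a3 is the member whose Ang II values all lie above it, and Pfkp, Ldha and Pdk1 are shown for comparison.

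Of the glucose transporters, Slc2a4 encodes GLUT4 (ENSMUSG00000018566, GRCm38 chromosome 11, 69942539 to 69948188, minus strand). It had 208, 230, 222 and 228 CPM in Ang II, against 279, 259, 265 and 342 CPM in Con. No Ang II value reached a Con value, and the highest Con value, that of Con 4, stood well above the other 3. The log2 fold change was -0.37 ± 0.11 (SE, edgeR adjusted p = 0.103). Slc2a1, the GLUT1 transporter of basal uptake, had 7.84, 9.09, 8.97 and 8.14 CPM in Ang II and 7.87, 7.17, 6.70 and 10.3 CPM in Con, and these overlapped. Per kilobase of exon, the mean level of Slc2a4 was 63.8 CPM in Ang II and 82.3 in Con, far above that of Slc2a1 at 2.43 in Ang II and 2.28 in Con.

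Of the hexokinases, Hk2, the insulin-responsive hexokinase of muscle, had 110, 103, 121 and 110 CPM in Ang II, against 126, 115, 134 and 172 CPM in Con. Its groups overlapped, and the log2 fold change of -0.30 ± 0.14 did not pass (edgeR adjusted p = 0.292). Hk1, the hexokinase of most tissues, had 55.1, 53.5, 96.5 and 56.4 CPM in Ang II and 74.2, 65.5, 69.4 and 83.2 CPM in Con. Ang II 3 lay far above the other 3 Ang II libraries, which were all below Con.

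In upper glycolysis, Pfkm, the muscle subunit of phosphofructokinase-1, had 516, 487, 506 and 530 CPM in Ang II, against 641, 572, 653 and 765 CPM in Con. No Ang II library reached the lowest Con library, and the log2 fold change was -0.37 ± 0.11 (edgeR adjusted p = 0.103). Pfkp, the platelet-type subunit, had 37.9, 38.2, 41.8 and 38.8 CPM in Ang II and 38.6, 23.5, 34.8 and 31.5 CPM in Con, with a log2 fold change of 0.29 ± 0.13 (edgeR adjusted p = 0.291). Its groups overlapped, since Con 1 lay within the Ang II range. The exons of Pfkp overlap those of Pitrm1 on the opposite strand over 5.58% of their length. Pitrm1 had 114% as many counts as Pfkp. Pfkl, the liver-type subunit, averaged 67.5 ± 4.59 CPM in Ang II and 75.6 ± 4.76 CPM in Con.

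Pfkfb1, a bifunctional enzyme of liver and muscle that sets the level of fructose 2,6-bisphosphate, had the lowest fold change of the members. It had 3.68, 5.81, 5.73 and 5.34 CPM in Ang II (275 to 435 counts), against 7.74, 6.93, 9.78 and 14.2 CPM in Con (483 to 1023 counts). The groups did not overlap, and the fold change was 0.532, or -0.91 ± 0.25 on the log2 scale (edgeR adjusted p = 0.0793). The exons of Pfkfb1 overlap those of Apex2 on the opposite strand over 3.06% of their length. Apex2 had 51.6% as many counts as Pfkfb1. Without Ang II_FI 3, which belongs to neither group but shares the estimate of spread, Pfkfb1 passed (-0.91 ± 0.22, edgeR adjusted p = 0.0380), where 1.37% of all genes were then lower. Pfkfb2, the isoform best known from heart, had 19.5, 26.3, 33.3 and 17.6 CPM in Ang II and 29.3, 24.5, 48.5 and 36.1 CPM in Con. Both of its groups spread widely and overlapped, with a log2 fold change of -0.52 ± 0.23 (edgeR adjusted p = 0.287). Pfkfb3, the inducible isoform with the highest kinase activity, had a log2 fold change of -0.06 ± 0.17.

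The remaining enzymes of upper glycolysis overlapped between the groups, with log2 fold changes of -0.22 ± 0.11 for Gpi1, the isomerase, -0.17 ± 0.11 for Aldoa, the muscle aldolase, and -0.04 ± 0.08 for Tpi1, the triose phosphate isomerase. Aldoa averaged 1097 ± 66.8 CPM in Ang II and 1232 ± 165 CPM in Con, and per kilobase of exon its level of 377 CPM in Ang II and 423 in Con was the highest of this group. Aldoc, the brain aldolase, had at most 13 counts in any Ang II or Con library.

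In lower glycolysis, Pkm, the pyruvate kinase of muscle and most other tissues, had 576, 532, 576 and 588 CPM in Ang II, against 712, 613, 687 and 747 CPM in Con. The groups did not overlap, and the log2 fold change was -0.28 ± 0.10 (edgeR adjusted p = 0.183). Eno3, the muscle enolase, averaged 726 ± 79.7 CPM in Ang II and 894 ± 120 CPM in Con (-0.30 ± 0.12, edgeR adjusted p = 0.225), and the groups overlapped by a narrow margin. Pgam1, the mutase of non-muscle tissues, had 43.5, 55.0, 71.0 and 54.8 CPM in Ang II and 34.5, 42.8, 46.1 and 51.1 CPM in Con, a log2 fold change of 0.36 ± 0.16 (edgeR adjusted p = 0.265). It lay above 0 while the muscle mutase Pgam2 (-0.08 ± 0.11) and Pgk1, the phosphoglycerate kinase (-0.05 ± 0.08), lay near 0, as did Eno1, the widely expressed enolase (0.01 ± 0.12).

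The Gapdh row, for glyceraldehyde phosphate dehydrogenase, held a small part of the counts on Gapdh-like sequence. It had 52.8, 31.5, 13.0 and 25.4 CPM in Ang II_FI, 43.3, 27.0, 51.3 and 26.2 CPM in Ang II and 22.9, 50.0, 45.2 and 43.7 CPM in Con, a wide and overlapping spread. In the same libraries its processed pseudogene Gm7336 had 544 to 732 CPM and Gm12070 had 217 to 285 CPM. Gm7336 alone contains 82.5% of the stretches of 50 bases in the Gapdh transcript. Gapdh and the 47 genes that share at least 20% of these stretches summed to 2348 to 3093 CPM, of which the Gapdh row held 1.3%. The sum averaged 2594 ± 282 CPM in Ang II and 2874 ± 146 CPM in Con, and the groups overlapped (log2 fold change -0.15 ± 0.10, edgeR adjusted p = 0.531). In Ang II_FI it averaged 2756 ± 372 CPM, which overlapped with both other groups. How reads that map to several places were counted is not given in the sources used here. Mpc1, described with the pyruvate carriers, held 41.5% of its sum with the pseudogene Mpc1-ps, and Eno1, which shares most of its transcript with Eno1b, held 87.0% of its sum.

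**Figure D2:**
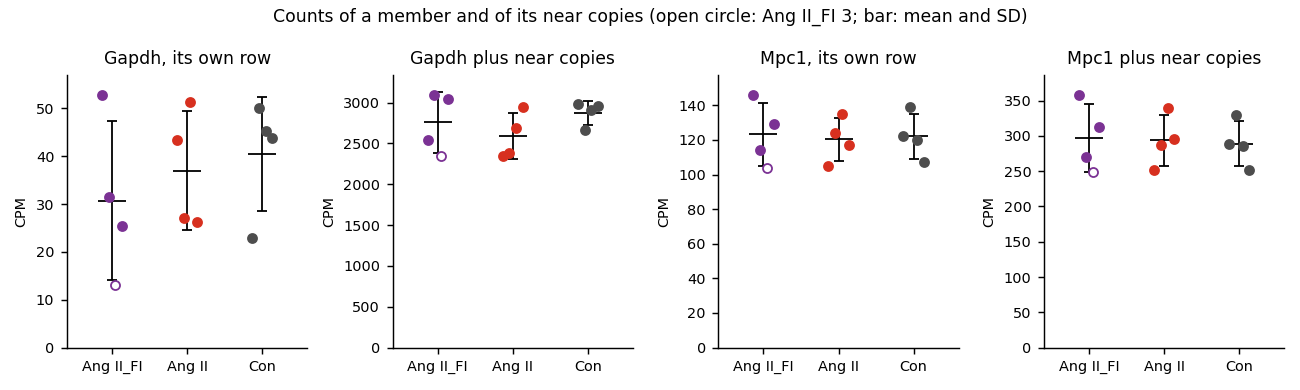
TMM-scaled CPM (y axis, from 0) by library and group (x axis) of the Gapdh and Mpc1 rows, and of each row summed with the genes that share at least 20% of its 50-base stretches; bars are the mean and SD, and the open circle is Ang II_FI 3. The Gapdh row lies between 13.0 and 52.8 CPM and the sum between 2348 and 3093 CPM.

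Lactate dehydrogenase interconverts pyruvate and lactate. Its heart-type subunit is Ldhb, which favours lactate oxidation, and the muscle type is Ldha. Ldhb had 900, 877, 926 and 1025 CPM in Ang II, against 1131, 1108, 1070 and 1430 CPM in Con. All Ang II values lay below all Con values, Con 4 lay far above the other Con libraries, and the log2 fold change was -0.35 ± 0.12 (edgeR adjusted p = 0.150). Ldha had 411, 463, 495 and 481 CPM in Ang II and 438, 422, 419 and 490 CPM in Con, which overlapped (0.07 ± 0.08).

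The monocarboxylate transporters differed in level by orders of magnitude. Slc16a3, the transporter MCT4 of lactate export, had 2.44, 1.98, 2.50 and 2.14 CPM in Ang II (140 to 182 counts), against 1.44, 0.918, 1.11 and 1.42 CPM in Con (64 to 102 counts). It was the member with the highest fold change, 1.85 (log2 0.89 ± 0.31, edgeR adjusted p = 0.166), and its groups did not overlap. Without Ang II_FI 3 it passed (0.88 ± 0.22, edgeR adjusted p = 0.0466), where 2.49% of all genes were then higher. Slc16a1, the broadly expressed MCT1, averaged 230 ± 35.7 CPM in Ang II and 235 ± 37.0 CPM in Con. Per kilobase of exon, the mean level was 0.425 CPM in Ang II and 0.230 in Con for Slc16a3, and 52.0 in Ang II and 53.1 in Con for Slc16a1.

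Of the lactate genes, the promoter windows of Ldha, Ldhb and Slc16a3 are shown, picked because their fold changes and numbers of one motif differ. They are RefSeq windows on build GRCm38.p6, from 250 bases before to 50 bases after the start. Capitals mark ACGTG on either strand, which overlaps the E-box CACGTG. It is one form of the core of the element bound by hypoxia-inducible factors. The other form, GCGTG, was not marked or counted, and it also stands in the printed Ldha and Ldhb windows. The Ldha window at chr7:46845554-46845853 (plus strand) holds 5 matches, because each CACGTG matches on both strands. A second Ldha window, not printed, holds 0. The Slc16a3 window at chr11:120948817-120949116 (plus strand) holds 2 matches and the Ldhb window at chr6:142507908-142508207 (minus strand) holds 0. The window of Slc16a1, not printed, holds 3 matches, more than that of Slc16a3. Its log2 fold change in Ang II against Con was -0.03 ± 0.13. Whether the number of matches goes with the fold change was not tested.
Ldha: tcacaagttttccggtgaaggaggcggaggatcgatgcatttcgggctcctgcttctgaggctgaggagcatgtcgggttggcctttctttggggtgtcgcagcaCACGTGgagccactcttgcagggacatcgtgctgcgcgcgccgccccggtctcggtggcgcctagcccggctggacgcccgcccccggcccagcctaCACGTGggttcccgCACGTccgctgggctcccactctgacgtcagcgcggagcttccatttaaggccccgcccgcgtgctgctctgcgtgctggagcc
Slc16a3: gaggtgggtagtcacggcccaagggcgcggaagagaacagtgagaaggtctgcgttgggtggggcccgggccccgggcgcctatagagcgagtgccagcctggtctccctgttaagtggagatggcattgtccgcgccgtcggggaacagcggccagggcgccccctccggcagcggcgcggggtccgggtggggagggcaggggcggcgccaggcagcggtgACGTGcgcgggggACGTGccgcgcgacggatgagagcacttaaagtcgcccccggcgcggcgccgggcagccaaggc
Ldhb: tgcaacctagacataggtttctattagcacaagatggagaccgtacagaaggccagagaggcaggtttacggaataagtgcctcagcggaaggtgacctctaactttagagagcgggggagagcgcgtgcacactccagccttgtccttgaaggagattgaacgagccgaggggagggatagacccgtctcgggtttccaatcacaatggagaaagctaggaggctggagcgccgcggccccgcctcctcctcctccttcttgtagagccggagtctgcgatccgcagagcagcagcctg
Of the 36 members, 35 matched an entry in the promoter table. The motif was present in at least 1 window of 19 of 35 member genes (54.3%), against 5886 of 27025 genes in the table (21.8%), and in 23 of 55 member windows (41.8%), against 6447 of 32851 windows (19.6%). These shares are over all genes in the promoter table, not only those tested here, and were not matched for base composition. Whether the list is enriched for the motif was not tested. Genes of glycolysis are textbook targets of hypoxia-inducible factors, and a match describes the letters in the window only.

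All 8 members of pyruvate oxidation lay below 0, with a median log2 fold change of -0.107. That of Mpc1 ranged from -0.08 to 0.05 when each library was left out in turn. The sum of Mpc1 with Mpc1-ps lay at 0.03 ± 0.12. Pdha1, the catalytic alpha subunit of pyruvate dehydrogenase, had 1027, 1055, 1081 and 1121 CPM in Ang II, against 1364, 1152, 1186 and 1345 CPM in Con. The groups did not overlap, and the log2 fold change was -0.24 ± 0.08 (edgeR adjusted p = 0.170). Pdk2, a kinase that inactivates pyruvate dehydrogenase, had 224, 199, 220 and 219 CPM in Ang II, against 251, 260, 282 and 347 CPM in Con. Its groups did not overlap either (-0.40 ± 0.12, edgeR adjusted p = 0.103). Pdk1, a second such kinase and a target of hypoxia-inducible factors, had 120, 125, 133 and 135 CPM in Ang II and 131, 133, 127 and 137 CPM in Con, which overlapped.

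The other subunits Pdhb, Dlat and Pdhx had log2 fold changes of -0.04 ± 0.08, -0.16 ± 0.08 and -0.14 ± 0.10, and the pyruvate carrier subunits Mpc1 and Mpc2 of -0.02 ± 0.12 and -0.07 ± 0.08. All 5 overlapped between Ang II and Con. Mpc1 had 105, 124, 135 and 117 CPM in Ang II and 122, 139, 120 and 107 CPM in Con.

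In glycogen metabolism, Pygm, the muscle glycogen phosphorylase that releases glucose phosphate from glycogen, had 498, 451, 503 and 524 CPM in Ang II, against 571, 542, 620 and 799 CPM in Con. Again no value overlapped, with Con 4 the highest library, and the log2 fold change was -0.36 ± 0.13 (edgeR adjusted p = 0.188). Pygb, the brain-type phosphorylase, averaged 431 ± 46.3 CPM in Ang II and 497 ± 59.2 CPM in Con, and Gys1, the muscle glycogen synthase, 48.5 ± 14.3 CPM in Ang II and 65.4 ± 8.79 CPM in Con. Both overlapped between the groups.

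**Figure D3:**
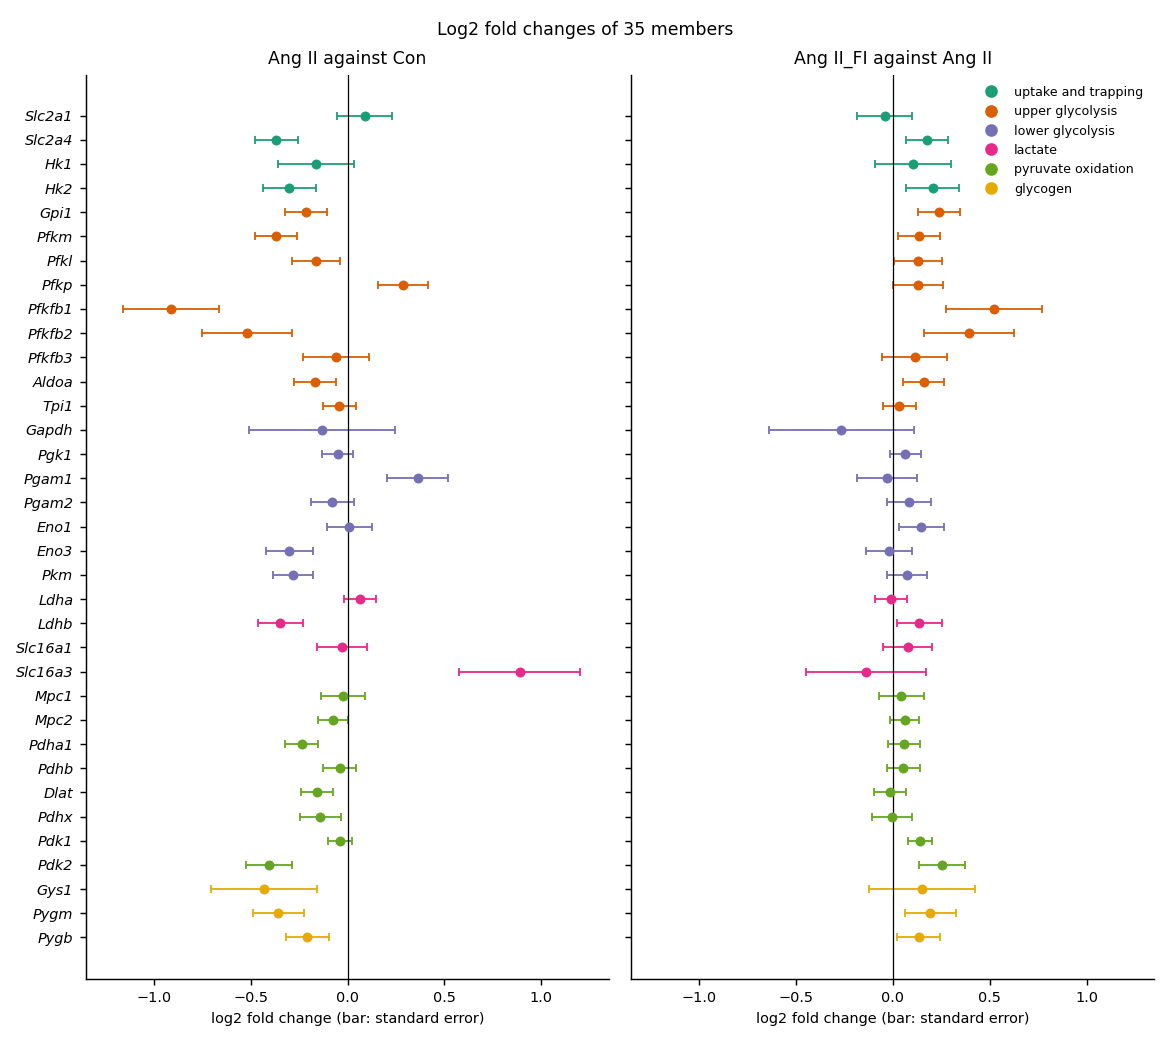
Log2 fold change (x axis) with its standard error for 35 members (y axis), coloured by role, for Ang II against Con (left) and Ang II_FI against Ang II (right). Aldoc is not drawn, as its libraries hold few counts apart from Ang II_FI 3. Most points lie left of 0 on the left and right of 0 on the right, and none passed the test over all genes. Counting Aldoc, which is above 0 in both comparisons, 29 of 36 members are below 0 in the first and 28 of 36 above 0 in the second. Both panels use the Ang II libraries.

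Within Con, many members followed the order of the libraries in the cardiomyocyte markers, and within Ang II this was less uniform. Con 4 was the highest Con library for 23 of the 36 members and for 11 of 12 cardiomyocyte markers, and Con 2 was the lowest for 25 members and 8 markers. Ang II 4 was the highest Ang II library for 17 members and 8 markers, while Ang II 1 was the lowest for 19 members and 2 markers and Ang II 2 for 12 members and 9 markers. The cardiomyocyte markers had a median log2 fold change of -0.201 in Ang II against Con, with 10 of 12 below 0, 0 called and 3 without overlap. In the same comparison 6 of 10 fibroblast markers rose (median 0.741, summed to 1507 to 1622 CPM in Ang II and 910 to 1200 CPM in Con) and 5 of 14 macrophage and leukocyte markers rose (median 0.457, 553 to 646 CPM in Ang II and 350 to 456 CPM in Con). Of the other fixed markers, 1 of 9 smooth muscle and pericyte markers rose (median 0.254), and 0 of 10 endothelial (0.246), 0 of 5 red blood cell (-0.529), 0 of 13 hepatocyte (1.446), 0 of 3 adipocyte (0.170), 0 of 6 skeletal muscle (0.071) and 0 of 5 neuron and Schwann markers (0.484) were called. The part of these markers in the members' values was not tested, and in whole tissue fewer cells of a type and less RNA per cell cannot be told apart. With library totals in place of TMM scaling, 6 of the 8 lower members still did not overlap, and 2 were higher.

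The ratio of counts of 2 genes in the same library does not depend on the scaling. For 11 pairs of isoforms of the same step this ratio was computed and is given as a description. Most pairs set a form of muscle or heart first. However, Slc16a1, set over Slc16a3, is broadly expressed, and Ldha, set under Ldhb, is the muscle type. In 6 of the 11 all Ang II ratios lay below all Con ratios, and in 0 above. No share over pairs of all genes was computed to set beside this, and some ratios share a gene (Pfkm or Pdk2). Of these 6, Pgam2 over Pgam1 and Slc16a1 over Slc16a3 had the larger change in the second gene. The log2 fold change was 0.36 for Pgam1 and 0.89 for Slc16a3. In the rest the first gene changed more. Ldhb over Ldha was 2.19, 1.89, 1.87 and 2.13 in Ang II, against 2.58, 2.63, 2.56 and 2.92 in Con. Pfkm over Pfkp was 13.6, 12.8, 12.1 and 13.7 in Ang II, against 16.6, 24.3, 18.7 and 24.3 in Con. Both ratios were lower in every Ang II library than in any Con library, by -0.404 and -0.669 on the mean log2 scale.

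Slc2a4 over Slc2a1 was 26.5, 25.4, 24.8 and 28.0 in Ang II, against 35.4, 36.2, 39.6 and 33.3 in Con. Pgam2 over Pgam1 was 6.05, 4.66, 3.97 and 5.80 in Ang II, against 8.30, 6.27, 6.71 and 6.22 in Con. The differences of the mean log2 ratios were -0.465 for the transporters, -0.436 for the mutases, -0.352 for Pdk2 over Pdk1 and -0.934 for Slc16a1 over Slc16a3, and none of these 4 overlapped. Ratios that overlapped were Hk2 over Hk1, Pfkm over Pfkl, Eno3 over Eno1, Pygm over Pygb and Pdk2 over Pdk4. Fibroblast and macrophage markers, given above, were higher in Ang II, and their part in the ratios was not tested.

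**Figure D4:**
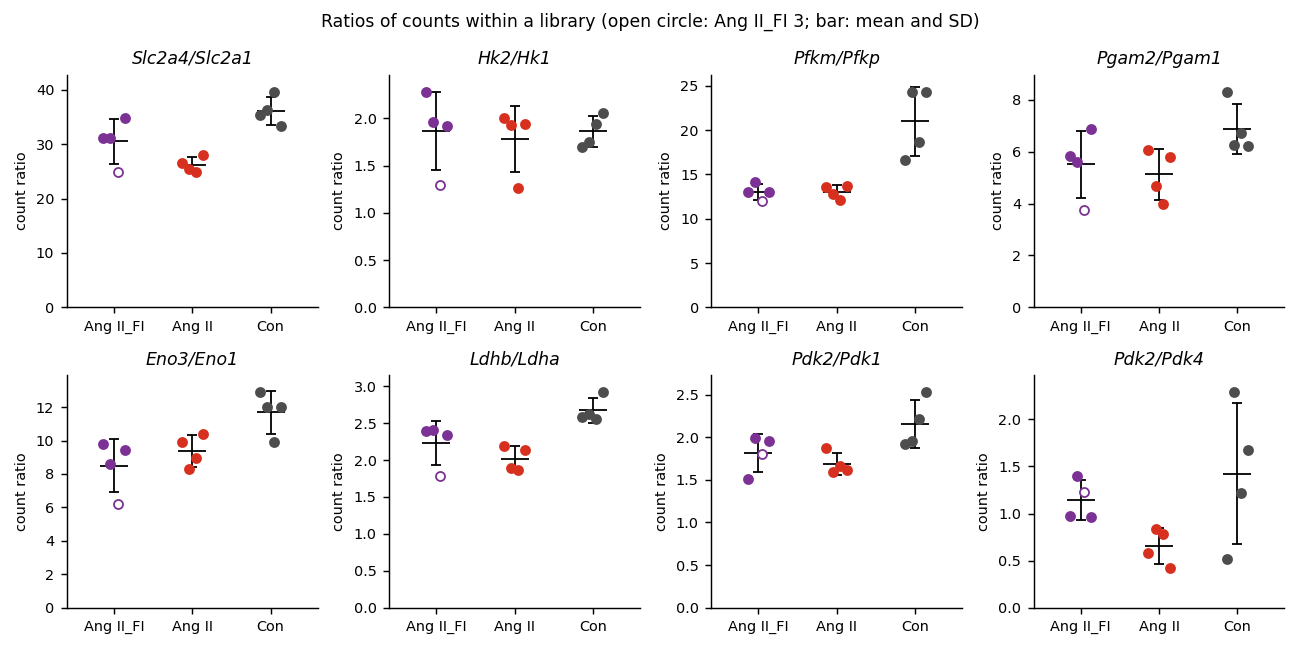
Ratio of raw counts of 2 isoenzymes in the same library (y axis, from 0) for 8 pairs in the 3 groups (x axis), with the mean and SD as a bar and Ang II_FI 3 as an open circle. The Ang II ratios lie below all Con ratios for Slc2a4/Slc2a1, Pfkm/Pfkp, Pgam2/Pgam1, Ldhb/Ldha and Pdk2/Pdk1, and Pdk2/Pdk4 lies above Ang II in all Ang II_FI libraries.

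The comparison of Ang II_FI with Ang II shows how the genes stood with FI under angiotensin II. Most members lay slightly above their Ang II level, and no member passed the test. The log2 fold change was above 0 for 28 of 36 members and below 0 for 8, with a median of 0.110, against 0.018 over all genes. edgeR called 0 members and 0% of all genes in either direction, with a smallest adjusted p of 0.481 for a member. DESeq2 called 0 members, where it called 0.0691% of all genes higher and 0.173% lower, and limma-voom called 0. At an unadjusted p under 0.05 there were 3 higher members (Gpi1, Aldoc and Pdk1) and 0 lower, against 5.46% and 4.49% of all genes. Groups without overlap were found for 2 higher members, Pfkfb1 and Pdk1, and 0 lower, against 2.08% and 3.26% of all genes, and for 0 with library totals in place of TMM scaling. This comparison shares the Ang II libraries with that of Ang II against Con, so opposite signs in the pair are no separate evidence.

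Pfkfb1 had 6.12, 6.24, 9.88 and 6.97 CPM in Ang II_FI, against 3.68, 5.81, 5.73 and 5.34 CPM in Ang II. The lowest Ang II_FI value stood just above the highest Ang II value, and the highest was that of Ang II_FI 3. The log2 fold change was 0.52 ± 0.25 (edgeR adjusted p = 0.509), and 0.32 ± 0.23 without Ang II_FI 3. Pdk1 had 138, 148, 137 and 139 CPM in Ang II_FI, against 120, 125, 133 and 135 CPM in Ang II. That is a narrow gap, with a log2 fold change of 0.14 ± 0.06 (edgeR adjusted p = 0.490).

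Slc2a4 had 237, 294, 209 and 257 CPM in Ang II_FI, against 208, 230, 222 and 228 CPM in Ang II. Ang II_FI 3 was its lowest Ang II_FI library, and without it the other 3 lay above all Ang II libraries (0.24 ± 0.11, edgeR adjusted p = 0.616). Pfkm had 507, 669, 474 and 576 CPM in Ang II_FI, Pdk2 had 209, 295, 245 and 272 CPM, and Ldhb had 995, 1192, 818 and 1072 CPM. Each of these overlapped with Ang II, with log2 fold changes of 0.14 ± 0.11 for Pfkm, 0.25 ± 0.12 for Pdk2 and 0.14 ± 0.12 for Ldhb. That of Ldhb was 0.22 ± 0.11 without Ang II_FI 3.

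In the other steps Ang II_FI also overlapped with Ang II. The 4 Ang II_FI libraries held 7.62, 9.43, 8.40 and 7.37 CPM of Slc2a1, 52.7, 80.5, 79.9 and 66.1 CPM of Hk1 and 120, 158, 104 and 127 CPM of Hk2. Pkm had 542, 696, 491 and 647 CPM and Pdha1 had 1099, 1227, 953 and 1155 CPM in Ang II_FI, with log2 fold changes against Ang II of 0.07 ± 0.10 and 0.06 ± 0.08. For both, Ang II_FI 3 was the lowest of the 4 libraries, and without it the values were 0.145 ± 0.10 and 0.11 ± 0.08. Pygm had 497, 686, 486 and 575 CPM, Ldha had 416, 494, 460 and 458 CPM and Mpc1 had 146, 114, 104 and 129 CPM in Ang II_FI, with log2 fold changes of 0.19 ± 0.13, -0.01 ± 0.08 and 0.05 ± 0.11. Those of Ldha and Mpc1 without Ang II_FI 3 were -0.02 ± 0.09 and 0.11 ± 0.11. All 10 members of upper glycolysis lay above 0, from 0.03 for Tpi1 (0.09 without Ang II_FI 3) to 3.37 for Aldoc, as did all 3 of glycogen metabolism and 6 of 8 of pyruvate oxidation, or 8 of 8 without Ang II_FI 3. Slc16a3 had 2.19, 3.22, 0.886 and 1.91 CPM in Ang II_FI, where the lowest value is that of Ang II_FI 3 and the other 3 lay around the Ang II values. Its log2 fold change was -0.14 ± 0.31 with that library and 0.11 ± 0.23 without it.

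Ang II_FI 3 was the lowest Ang II_FI library for 23 members and for 9 of 12 cardiomyocyte markers, and Ang II_FI 2 the highest for 25 members and 5 markers. Without Ang II_FI 3, 32 members lay above 0 and 4 below, with a median of 0.132 against -0.003 over all genes. The test then called 0 members, against 0% of all genes higher and 0.00565% lower. No overlap was then seen for 3 higher members and 0 lower, against 4.36% and 5.29% of all genes. Cardiomyocyte markers had a median of 0.141 (11 of 12 above 0), and 0.206 without Ang II_FI 3. Fibroblast markers had a median of -0.279 (9 of 10 below 0, 0 called), and summed to 1084 to 1398 CPM in Ang II_FI and 1507 to 1622 CPM in Ang II. Endothelial markers had a median of -0.330 (10 of 10 below 0, 0 called), and summed to 1078 to 1538 CPM in Ang II_FI and 1438 to 1596 CPM in Ang II. Smooth muscle and pericyte markers had a median of -0.256 (9 of 9 below 0, 0 called), and their sums of 840 to 1091 CPM in Ang II_FI and 1143 to 1150 CPM in Ang II did not overlap, nor did those of the fibroblast markers. Red blood cell markers had a median of 0.698 (5 of 5 above 0, 0 called), with sums of 88.4 to 220.1 CPM in Ang II_FI and 48.6 to 97.0 CPM in Ang II. The medians were -0.113 for macrophage and leukocyte, -0.236 for adipocyte, -0.307 for skeletal muscle and -0.313 for neuron and Schwann markers, with 0 called, and 8.074 for hepatocyte markers, or -1.122 without Ang II_FI 3. The part of these markers in the members' values was not tested.

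Aldoc is a case of its own. It had 28, 0, 337 and 9 counts in Ang II_FI (0.423, 0, 4.33 and 0.129 CPM), and 0, 13, 12 and 10 counts in Ang II. The fitted log2 fold change of 3.37 ± 1.45 (edgeR adjusted p = 0.481) was 0.60 ± 1.32 without Ang II_FI 3, so it rests on that library. Outside the 36 genes, Pklr, the liver pyruvate kinase, had 38.1 CPM in Ang II_FI 3.

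Among the isoenzyme ratios, Pdk2 over Pdk4 was 0.975, 1.40, 1.23 and 0.960 in Ang II_FI, against 0.579, 0.839, 0.786 and 0.424 in Ang II. No Ang II_FI library overlapped with Ang II, and this was the sole ratio of the 11 for which that held with all 4 libraries. Pdk4, the kinase induced by fasting and fatty acids, had 214, 211, 199 and 283 CPM in Ang II_FI, against 386, 237, 280 and 517 CPM in Ang II (-0.64 ± 0.36, edgeR adjusted p = 0.591). Its Con values ran from 114 to 484 CPM, wider than either of the other groups. Ldhb over Ldha was 2.39, 2.41, 1.78 and 2.34 in Ang II_FI, and lay above all Ang II ratios once Ang II_FI 3, at 1.78, was left out. So did Slc2a4 over Slc2a1, with 31.1, 31.2, 24.9 and 34.9 in Ang II_FI. Pfkm over Pfkp was 13.0, 14.1, 12.0 and 13.0 in Ang II_FI, inside or next to the Ang II range.

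Between Ang II_FI and Con, the members as a whole lay close to even, and no member passed. The median log2 fold change was -0.022, with 15 above 0 and 21 below, against a median of 0.024 over all genes. edgeR called 0 higher and 0 lower members, where 0.719% and 0.259% of all genes were called, and the smallest adjusted p was 0.129. At an unadjusted p under 0.05 there were 3 higher and 1 lower, against 10.4% and 6.92% of all genes. No overlap was seen for 1 higher member, Pfkp, and 0 lower, against 4.59% and 4.62% of all genes, and with library totals for 0 higher and 2 lower. Pfkp had 38.9, 47.4, 39.6 and 44.4 CPM in Ang II_FI, against 38.6, 23.5, 34.8 and 31.5 CPM in Con. The margin over Con 1 was small, and the log2 fold change was 0.42 ± 0.13 (edgeR adjusted p = 0.129).

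Without Ang II_FI 3, 0 members were called, against 0.932% of all genes higher and 0.311% lower. Then 3 members were higher without overlap, Pfkp, Slc16a3 and Pdk1, and 0 lower, against 8.13% and 6.79% of all genes. Slc16a3 was then at 0.99 ± 0.24 on the log2 scale (edgeR adjusted p = 0.0644). The ratios Pfkm over Pfkp, Ldhb over Ldha and Eno3 over Eno1 lay below all Con ratios in every Ang II_FI library, with mean log2 differences of -0.672, -0.269 and -0.478. The differences without Ang II_FI 3 were -0.633, -0.164 and -0.335, and the groups still did not overlap, while Slc16a1 over Slc16a3 then lay below all Con ratios as well (-0.911). In this comparison 3 of 10 fibroblast markers and 3 of 14 macrophage and leukocyte markers rose, with medians of 0.301 and 0.452, and their part in these ratios was not tested.

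Lists of further genes of sugar metabolism, its regulators and the hypoxia response were read in the same fit. Of 10 other glycolysis enzymes, 0 rose and 1 fell in Ang II against Con, Ldhd, the D-lactate dehydrogenase (-0.52 ± 0.12, edgeR adjusted p = 0.0445). Ldhd had 38.0, 37.6, 37.6 and 38.4 CPM in Ang II, against 52.5, 55.5, 49.8 and 58.9 CPM in Con, and 42.1% of its exon length overlaps Znrf1 on the opposite strand. That call was lost in 9 of 12 fits with 1 library left out, all but those without Ang II_FI 1, 2 or 3 (-0.55 to -0.47). Of 19 other glycogen genes, 0 rose and 2 fell. Phkg1, the muscle catalytic subunit of phosphorylase kinase, which activates Pygm, had 9.02, 7.69, 7.73 and 8.78 CPM in Ang II, against 15.3, 14.0, 12.3 and 14.4 CPM in Con. It fell by 0.76 ± 0.11 on the log2 scale in Ang II (edgeR adjusted p = 0.00742) and by 0.63 ± 0.11 in Ang II_FI against Con (0.0242), and its exons overlap Sumf2 on the opposite strand. The call in Ang II held with each library left out in turn (-0.81 to -0.71), while that in Ang II_FI was lost without Ang II_FI 1, Con 1, Con 2 or Con 4. Epm2a, the glycogen phosphatase laforin, had 24.0, 19.3, 21.1 and 25.2 CPM in Ang II, against 30.4, 29.0, 29.3 and 28.5 CPM in Con, and fell by 0.39 ± 0.09 on the log2 scale (edgeR adjusted p = 0.0452), a call that held in 1 of 12 such fits, the one without Ang II_FI 3 (-0.45 to -0.32).

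Of 11 targets of hypoxia-inducible factors outside glycolysis, 1 rose in Ang II against Con, Ndrg1 (0.43 ± 0.08, edgeR adjusted p = 0.0260), and 0 fell. Its call was lost without Ang II 2, Ang II 3, Ang II 4, Con 1 or Con 4 (0.39 to 0.48). Among 6 other genes of pyruvate oxidation, 9 of gluconeogenesis and glycerol phosphate, 14 of the pentose phosphate, polyol and hexosamine pathways and 16 regulators, 0 were called in either direction with all libraries. Without Ang II_FI 3, 3 of the 9 genes of gluconeogenesis and glycerol phosphate were called lower in Ang II than in Con, and 0 of the other 3 lists. They were Pcx, pyruvate carboxylase (-0.44 ± 0.09, edgeR adjusted p = 0.0196), Gpd1, the cytosolic glycerol phosphate dehydrogenase (-0.39 ± 0.09, 0.0312), and Fbp2, the muscle fructose bisphosphatase (-0.53 ± 0.13, 0.0422). Pcx reached 97.4 CPM and Gpd1 98.0 CPM in Ang II_FI 3. With all libraries the medians of the log2 fold changes were -0.232, -0.213, -0.029 and -0.128 for these 4 lists in that order. In Ang II_FI against Ang II 0 genes of these lists were called, and in Ang II_FI against Con Phkg1 was called.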

How the data were processed

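The authors deposited raw counts per gene, 1 column per library, with the group taken from the sample titles. The submitters' processing notes name GRCm38 as the build and list HISAT, DESeq 1.8.3 and featureCounts 1.5.0-p3 as tools. Strand setting, annotation release and multi-mapping rule are not stated there, so overlapping genes and genes with near copies are uncertain. Per the labels' protocols, both TRIzol and an RNeasy kit are named for the extraction. The table also held 13 unnamed empty columns.

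The members, gene lists and tests were chosen with earlier results of these data known. Genes were filtered with filterByExpr, scaled by TMM and tested by quasi-likelihood in edgeR 4.0.16 (R 4.3.3), with 12 libraries and 3 group means in the fit, with Benjamini-Hochberg adjustment over 17376 genes and a threshold of 0.05. CPM are counts scaled to the library total times its TMM factor (0.948 to 1.07), and CPM per kilobase divides by the exon length of the gene. Groups are said not to overlap when all values of one group lie on one side of the other group. Ratios of isoenzymes were taken from raw counts within a library. The procedure was tested on simulated data. Floors of 3 counts cover counting error only. Gene models came from GENCODE M21 (GRCm38), where near copies were found as exact 50-base matches to the longest coding transcript. Alternatives were other scalings, no filter, DESeq2 1.42.0, limma-voom (limma 3.58.1), fits of 2 groups, a replicate block, the sum of Eno1 and Eno1b, and each library left out in turn. The sum of members with their near copies was chosen after seeing the data.

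Values in every library are given for members that passed a test or did not overlap, for 14 enzymes and transporters chosen by name, and for other pathway genes past the threshold and Pdk4. Pklr was singled out after its values were seen. Some results on further genes are not reported here.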

Additional observations from a re-analysis of the deposited data

Results flagged for a closer look

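Among 141 sets of 4 values (each member and isoenzyme ratio in each group), 5 held a library far from the other 3 by Dixon's criterion, where chance gives about 1 in 20 sets. Hk1 reached 96.5 CPM in Ang II 3, against 53.5 to 56.4 CPM in the other Ang II libraries, and the Hk2 over Hk1 ratio of that library was accordingly 1.26, against 1.93 to 2.00. Aldoc reached 4.33 CPM in Ang II_FI 3, against 0 to 0.423 CPM in the other Ang II_FI libraries. The Ldhb over Ldha ratio was 1.78 in Ang II_FI 3, against 2.34 to 2.41. Ldhb reached 1430 CPM in Con 4, against 1070 to 1131 CPM in the other Con libraries.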

How the results depend on the processing

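In Ang II against Con, the members called higher ranged from 0 to 1 and those called lower from 0 to 1 when each library was left out in turn, with 1 higher (Slc16a3) and 1 lower (Pfkfb1) without Ang II_FI 3. DESeq2 called 4 lower. In the comparisons of Ang II_FI with Ang II and with Con, 0 members were called higher or lower under every alternative run. The log2 fold change of Pfkl in Ang II_FI against Ang II ranged from -0.0055 (without Ang II_FI 2) to 0.22 (without Ang II_FI 1), where it was 0.13 with all libraries. With a replicate block, 0 members were called in any comparison, and outside the members Ldhd, Epm2a, Ndrg1 and, in Ang II_FI against Con, Phkg1 were no longer called. Library totals or no filter also ended the calls of Ldhd and Epm2a, and fits of 2 groups those of Epm2a and, in Ang II_FI against Con, Phkg1. Replicate numbers gave no clear pairing of the libraries. Deviations of libraries with the same number correlated at -0.0572 to 0.105 (n = 17376 genes, which are not independent). The highest value was that of Ang II_FI 3 with Ang II 3. These libraries also had the highest sums of hepatocyte markers, 29894 CPM in Ang II_FI 3 and 107 CPM in Ang II 3. The ratio Aldoa over Aldoc was not computed, as Aldoc had 0 counts in some libraries. Depth limits Slc16a3, with 64 to 217 counts per library, and Aldoc, with 0 to 337.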
